A study of Mus musculus with 18 samples.

Results

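Car1-positive cells were a small group of barcodes in the lineage-traced ileum libraries, marked by transcripts of the carbonic anhydrase gene Car1. Some of them resembled free RNA or Paneth cells in part of their transcripts, as given below. Members were chosen by their own transcripts. A barcode was kept when it held 500 to 18000 UMIs (unique molecular identifiers, each counted as 1 captured transcript) and 200 to 4000 genes, with under 5% of its UMIs from mitochondrial genes. A kept barcode was a member when it had at least 1 Car1 UMI, at least 4 UMIs of Car1, 1810065E05Rik and Sult1a1 together, and under 1.5% of its UMIs from the 4 goblet genes Muc2, Zg16, Clca1 and Fcgbp. By this rule 492 of 26266 kept barcodes in the 4 lineage-traced libraries were members (1.87%). The members numbered 237 in WT nTnG replicate 1, 139 in WT nTnG replicate 2, 37 in Setdb1-KO nTnG replicate 1 and 79 in Setdb1-KO nTnG replicate 2. None of the 25693 kept barcodes of the 4 libraries sorted for Lgr5-GFP met the rule, which allows a share of up to 0.0117%, and Car1 had 0 UMIs in those libraries.

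Carbonic anhydrases convert carbon dioxide and water into bicarbonate and a proton, and cytosolic Car1 and Car2 serve acid-base balance and ion transport in absorptive epithelium. In the mouse gut Car1 is best known as a gene of colon and caecum surface cells. Sult1a1 adds sulfate to phenols, using a donor that Papss2 makes, while 1810065E05Rik is a gene with no described role that can be stated here. The gut epithelium renews from Lgr5-positive stem cells at the crypt base, whose daughters become absorptive enterocytes or secretory goblet, Paneth, enteroendocrine and tuft cells.

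The study deleted Setdb1, a methyltransferase that places the repressive mark H3K9me3, in intestinal stem cells and compared the cells with those of control mice. The WT nTnG mice were Lgr5-GFP-CreERT2/nTnG and the Setdb1-KO nTnG mice Lgr5-GFP-CreERT2/Setdb1lox/lox/nTnG, all on C57Bl6. Both groups were 60 to 65 days old, received tamoxifen once, by intraperitoneal injection of 70 mg/kg in corn oil, and were analysed 5 days later, so the controls carried the Lgr5-driven, inducible Cre, the nTnG reporter and the drug as well. Ileal crypt cells were sorted for GFP, which in nTnG mice appears in the nucleus of cells that recombined and of their descendants, and each group had 2 single-cell libraries. The Lgr5-GFP allele gives GFP in stem cells as well. The Lgr5-GFP sort came from Lgr5-GFP-CreERT2 mice with or without Setdb1lox/lox, without nTnG, at the same age and after the same drug. The Lgr5 promoter drives the Cre of this line in a mosaic of crypts. The study's methods call the replicates biological, without saying how many mice went into each library. Libraries were the units of each test. The gene tests took the spread between libraries largely from information shared over genes, not from each gene alone.

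The lineage-traced libraries held 16881518 to 43046925 UMIs, and the median kept barcode held 970.5 to 2087. Setdb1, the deleted gene, had 4, 1, 0 and 2 UMIs in the members of WT nTnG replicates 1 and 2 and Setdb1-KO nTnG replicates 1 and 2 (the order of every list of 4 values below), and 117, 34, 94 and 210 UMIs in all kept barcodes. These 3′ counts do not measure the deleted exon, so they check neither the genotype nor the deletion. GFP had 0 UMIs in members and 20 in all kept barcodes, so the lineage label of single cells could not be checked either. Libraries shared 6 to 25 kept barcode sequences per pair and no member barcode was kept in another library. Scrublet, which simulates doublets, marked 19, 4, 3 and 3 members, which were kept here and left out in an alternative. WT nTnG replicate 2 stood apart in the members: it supplied 41 of the 60 members in which the 3 genes were under 0.1% of UMIs, and values without the cells of low share are given beside the leading genes below.

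Epcam, an epithelial adhesion protein, stood at 1345, 722, 1709 and 1685 CPM (UMIs scaled to a fixed common total, here on the plain library scale) in the summed members, against 592, 325, 1002 and 820 CPM in near-empty barcodes of 10 to 100 UMIs and 966, 1081, 1378 and 1367 CPM in the other kept barcodes. It was above the near-empty level in each library, and in WT nTnG replicate 2 below the other kept barcodes. The summed level of the T cell and immune list was 5, 9, 0 and 0 CPM in members, with 10 of its 15 genes at 0, and Ptprc, the pan-leukocyte marker CD45, had no UMI. The mesenchymal, endothelial and erythroid list reached 5, 1, 0 and 0 CPM, with 10 of 12 genes at 0. The labels call the sorted cells stem cells, but Lgr5 was at 4.7, 5.9, 0 and 0 CPM in the members, against 10.8, 8.6, 22.4 and 17.1 CPM in the other kept barcodes. Contrasts of members with other barcodes are descriptions without a test, because transcripts of the same cells chose the members.

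Car1, at chr3:14766216-14808368 on the minus strand (mm10), made up 94.9% of the members' UMIs of the 3 genes. Its plain CPM in the summed members was 14248, 4036, 23378 and 21143, and the median member held 14, 8, 8 and 14 Car1 UMIs. The most Car1 UMIs in a single cell were 562, 579, 802 and 1091, so each library held cells with very high Car1 beside many with few. All members together held 9134, 3423, 1409 and 6461, so 1 cell gave most of the Car1 of Setdb1-KO nTnG replicate 1. 1810065E05Rik (chr11:58421111-58426024, plus strand) was at 744, 218, 431 and 524 CPM in members. Sult1a1 (chr7:126672865-126676432, minus strand) was at 82.7, 34.2, 415 and 448 CPM, and 14.8%, 15.8%, 32.4% and 74.7% of members held a Sult1a1 UMI. All 3 transcripts were seen together in 78 of the 492 members and Car1 alone in 185, so that more members held Car1 alone than all 3.

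The members ranged widely in how much of their RNA came from the 3 genes. The median share of a member's UMIs was 1.03%, 0.247%, 0.709% and 0.633%, and the highest share was 18.4%, 11.1%, 11.2% and 18.02%. At least 0.5% was reached by 175, 54, 27 and 41 members (297 in all), while 13, 41, 0 and 6 members (60 in all) were under 0.1%. Close to the threshold, 24, 22, 6 and 8 members held exactly 4 UMIs of the 3 genes, and 41, 67, 8 and 11 barcodes that met the other conditions held 3. A further 19, 40, 5 and 12 barcodes missed membership only through the goblet limit.

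**Figure D1:**
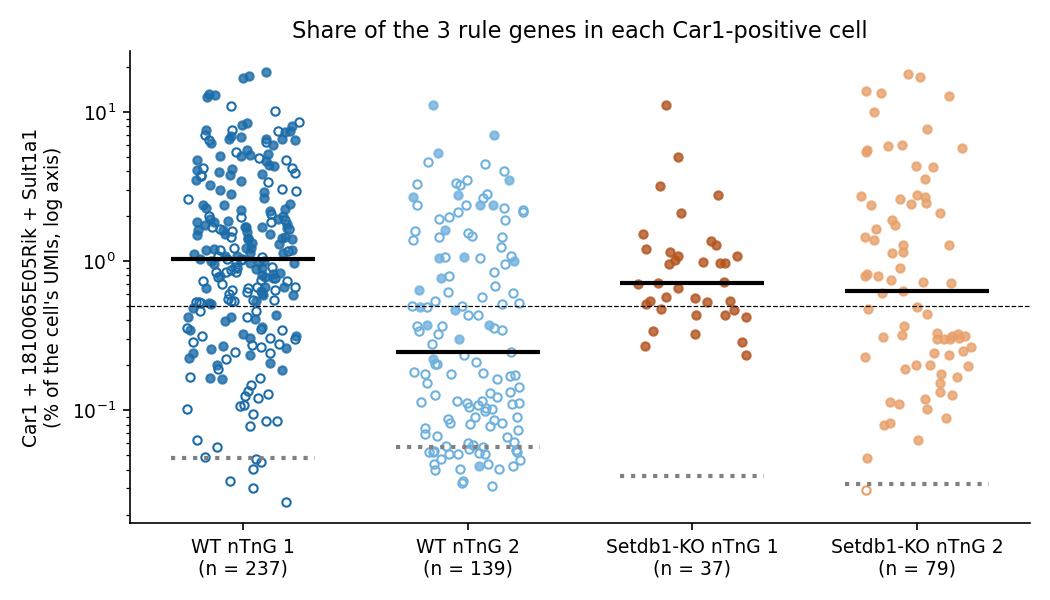
Share of each member's UMIs from Car1, 1810065E05Rik and Sult1a1 (log axis, percent) in the 4 libraries, with 1 point per cell, open circles for cells with at least 10% of UMIs from Defa genes, a black line at the median, a dashed line at 0.5% and a grey dotted line at the level in near-empty barcodes. Cells near the grey line are mostly open circles from WT nTnG replicate 2, where the median is 0.247%.

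Free RNA carried Car1 in these libraries. In near-empty barcodes of 10 to 100 UMIs, Car1 was at 442, 516, 332 and 277 CPM and the 3 genes together made up 0.0476%, 0.0565%, 0.0360% and 0.0321% of UMIs. Car1 UMIs were also found in Paneth-defensin barcodes, the kept barcodes with at least 50% of their UMIs from Paneth defensins, of which some were members. At least 1 was held by 13.6%, 20.0%, 3.41% and 5.77% of them, at median depths of 8624, 6408.5, 3130.5 and 5290 UMIs. Of all kept barcodes, 14.3%, 30.3%, 3.38% and 4.49% held at least 1, at 1416, 1129.5, 970.5 and 2087 UMIs. Car1 was at 37.9, 258, 7.1 and 9.8 CPM in the Paneth-defensin barcodes, below the near-empty level in each library. It was at 308, 758, 49.99 and 98.96 CPM in goblet-marker barcodes, of which 12.7%, 31.4%, 2.71% and 5.59% held a Car1 UMI. Enterocyte-marker barcodes, defined below, held 172, 699, 14.7 and 15.2 CPM of Car1. They numbered 816, 216, 28 and 135 here and 805, 206, 28 and 134 without members, so some members, chosen by Car1, were included. Both kinds were above the near-empty level in WT nTnG replicate 2 and below it in the other libraries. The level of the enterocyte-marker barcodes without members is not given. Defa transcripts, the Paneth cell alpha-defensins, made up 36.5%, 39.5%, 16.03% and 24.3% of UMIs in near-empty barcodes and 9.44%, 26.1%, 1.53% and 1.48% in the median member. At least 10% Defa UMIs were found in 108, 118, 0 and 1 members, so Defa RNA differed between the genotypes' members, and its part in the results below was not tested. The highest Defa share of a member was 73.7%, 73.5%, 6.4% and 62.1%. Members of all libraries but Setdb1-KO nTnG replicate 1 thus included Paneth-defensin barcodes. Others were near free RNA in both shares, such as a barcode of WT nTnG replicate 2 with 11813 UMIs, 37.5% Defa and 0.0508% of the 3 genes.

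Genes outside the rule described the same cells. Of 957 such genes at a mean of at least 100 CPM in members, 12 were at least 2-fold higher in members than in the other kept barcodes in all 4 libraries (1.25%), with ratios taken on CPM plus 1. The plot of leading genes shows 16 of the 25 genes with the highest ratios. In the 297 members with at least 0.5% of UMIs from the 3 genes, 52 of 1053 genes met the same limit (4.94%), and 19 of the 25 leading genes were common to both orders. The 25 are ordered by the smallest of their 4 ratios, and values are given as members against other kept barcodes, in plain CPM. In WT nTnG replicate 2, the 54 members with at least 0.5% held 1139 CPM of Mgat4c, 406 of Car2, 546 of Cyp2c55 and 666 of Abcb1a, against 261, 106, 134 and 189 over all its members.

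**Figure D2:**
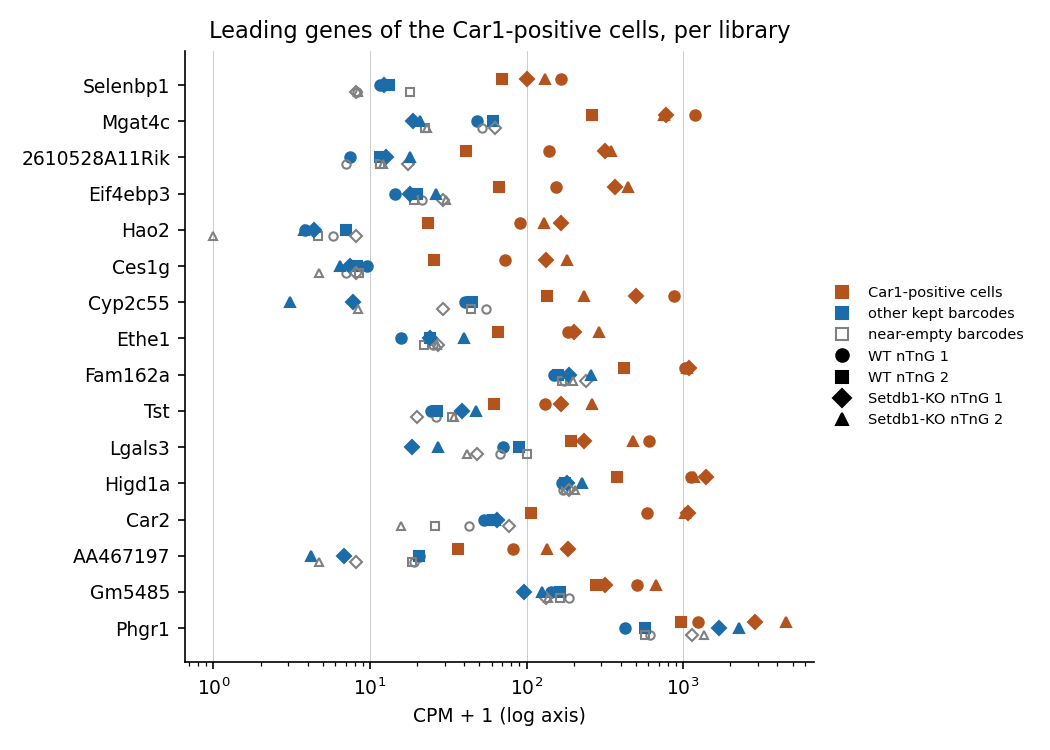
Plain CPM plus 1 (log axis) of 16 genes in members, other kept barcodes and near-empty barcodes of the 4 libraries, 1 point per library. Near-empty barcodes lie close to the other kept barcodes for most genes, and the members of WT nTnG replicate 2 lie lowest for most.

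Car2, in the same gene cluster as Car1 on chromosome 3 (chr3:14886273-14900770, plus strand), was at 591, 106, 1078 and 1024 CPM in members and 52.8, 59.8, 64.0 and 61.9 CPM in the others. The members of WT nTnG replicate 2 were thus the closest to background. Car3 lies between Car1 and Car2, and Car13 on the other side of Car1. Car13 was at 15.6, 4.7, 33.2 and 9.8 CPM and Car3 at 1.6, 0, 0 and 0, so the genes of the cluster did not share the level. Car12, a membrane carbonic anhydrase, was at 31.2, 8.3, 183 and 52.4 CPM against 14.9, 13.5, 25.1 and 22.5. Slc26a3, the chloride-bicarbonate exchanger of the colon surface, was at 57.7, 18.9, 66.4 and 49.1 CPM against 12.0, 10.1, 6.2 and 4.8. Of 4 carbonic anhydrase genes above 20 CPM, Car1 left out, 2 were higher in all 4 libraries and none lower, with a median ratio of 2.69. Of all 4003 genes at that level, 13.4% were higher in all 4. Here and below, a gene was at that level with a mean of at least 20 CPM in members or in the other kept barcodes. A gene could thus enter through the members alone, so these counts are a description only.

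Cyp2c55, a cytochrome P450, was at 878, 134, 498 and 232 CPM in members and 39.7, 43.9, 6.7 and 2.1 in the others. Ces1g, a carboxylesterase, was at 71.8, 24.8, 133 and 180 CPM against 8.6, 7.3, 6.4 and 5.5. Abcb1a, which encodes a P-glycoprotein efflux pump, was at 1073, 189, 531 and 380 CPM against 166, 119, 83.7 and 48.7. Each was higher in the members of all 4 libraries, with the smallest ratio in WT nTnG replicate 2. Sult1d1, a sulfotransferase, was at 181, 75.5, 266 and 209 CPM against 74.9, 77.2, 74.4 and 62.6, below the others in WT nTnG replicate 2. Of the 14 sulfotransferase and conjugation genes above 20 CPM, 6 were higher in all 4 libraries and none lower (median ratio 2.15). In the members with the 3 genes at 0.5% or more, 8 of the 14 were higher in all 4 libraries, where 19.7% of the 4003 genes were higher and 10.1% lower.

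Selenbp1, a methanethiol oxidase, led the order at 164, 68.4, 99.6 and 131 CPM against 10.5, 12.2, 11.3 and 12.0. Ethe1, a mitochondrial persulfide dioxygenase, was at 183, 64.9, 199 and 291 CPM against 14.8, 23.3, 23.2 and 39.0. Tst, the thiosulfate sulfurtransferase also called rhodanese, was at 131, 61.3, 166 and 262 CPM against 23.7, 25.7, 37.6 and 46.8. All 3 were at least 2-fold higher in the members of each library. Hao2, a peroxisomal hydroxyacid oxidase, was at 90.5, 22.4, 166 and 128 CPM against 2.8, 6.0, 3.4 and 2.8, more than 3-fold higher in each library. Fam162a and Higd1a, hypoxia-induced genes of the mitochondria, were at 1033, 416, 1095 and 1057 CPM and at 1128, 377, 1394 and 1168 CPM in members, and at no more than 258.2 and 224.8 CPM in the others.

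Mgat4c, which encodes a glycosyltransferase of the N-glycan family, was at 1182, 261, 780 and 749 CPM against 47.2, 60.5, 17.8 and 19.9, second in the order after Selenbp1. Lgals3, a beta-galactoside-binding lectin, was at 607, 192, 232 and 475 CPM against 69.4, 88.7, 17.4 and 26.3. Phgr1, a small proline-, histidine- and glycine-rich epithelial protein, was at 1248, 963, 2887 and 4522 CPM against 422, 569, 1688 and 2281, a smaller relative difference at a high level. Eif4ebp3, a translation inhibitor, was at 153, 66.0, 365 and 445 CPM against 13.4, 18.9, 17.1 and 25.6. In other marker-defined barcodes Mgat4c averaged 109 CPM in enterocyte-marker cells (Fabp1, Fabp2, Apoa1 and Apoa4 at least 1.5% of UMIs), 64.0 in goblet-marker cells and 10.2 in Olfm4-marker cells, and Cyp2c55 averaged 125, 33.0 and 8.5. Enterocyte-marker cells of single libraries reached 240 CPM of Mgat4c and 279 of Cyp2c55, the latter above the 134 CPM of all members of WT nTnG replicate 2 and below the 546 CPM of those with the 3 genes at 0.5% or more. Abcb1a averaged 444 CPM in enterocyte-marker cells (57.9 to 940 over the libraries) against 543 in members, and Lgals3 259 (73.6 to 420) against 376. Phgr1 averaged 2251 CPM there (988 to 3968) against 2405 in members, and 5 of the 25 leading genes, Gm5485, 2200002D01Rik, Fth1, Cbr1 and Cox7a1, averaged more in enterocyte-marker cells than in members. In the Lgr5-GFP sort no library exceeded 12.5 CPM of Mgat4c, 1.7 of Cyp2c55 and 6.3 of Car2. Other leading genes were present there: Selenbp1 reached 43.8 CPM, Ethe1 83.9, above the 64.9 CPM of the members of WT nTnG replicate 2, and Higd1a 208, near the level of the other kept barcodes.

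Lists of marker genes compared the members with gut regions. Of the 20 colon and caecum absorptive genes, 11 were above 20 CPM, some through the members alone, such as Slc26a3. Of these 11, 8 were higher in members of all 4 libraries and none was lower (median ratio 4.18, against 1.02 over all 4003 genes). In the members with the 3 genes at 0.5% or more, 7 were higher and 1 lower (median ratio 4.57, against 1.13). There 19.7% of the 4003 genes were higher and 10.1% lower. The summed list stood at 2171, 755, 1809 and 1194 CPM in members and at 485, 537, 446 and 392 CPM in the others. Aqp8, a water channel of colonic surface cells, was nearly absent at 3.1, 1.2, 0 and 0 CPM, Scnn1g, an epithelial sodium channel subunit, had no UMI, and Car4, a membrane carbonic anhydrase of the colon, was at 74.9, 38.9, 33.2 and 26.2 CPM. The posterior identity list, which holds the Cdx genes and posterior Hox genes, had 6 of 17 genes above 20 CPM, of which 2 were higher in all 4 libraries. Hoxb13 had a single UMI. Of 25 small intestine and ileum enterocyte genes, 3 were higher in all 4 libraries and 12 lower (median ratio 0.796). The sum of this list was 9807, 18243, 2572 and 6309 CPM in members and 10945, 14229, 3230 and 4407 CPM in the others. It was thus higher in members of both replicates 2, and above the colon and caecum list in each library. Fabp6, the ileal bile acid-binding protein, was at 457, 2502, 0 and 167 CPM against 770, 1114, 126 and 175. Fabp2, a small-intestinal fatty acid-binding protein, remained abundant at 2217, 2909, 1394 and 2143 CPM.

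Of 10 crypt stem genes, none was higher and 8 were lower in all 4 libraries (median ratio 0.588). Olfm4, a crypt-base gene, was at 261, 263, 315 and 75.3 CPM against 402, 325, 748 and 460. Of 11 Paneth genes none was higher and 6 lower, and of 10 DNA replication genes none was higher and 4 lower in all 4 libraries, where 12.5% of the 4003 genes were lower. Of 6 enteroendocrine genes 1 was lower and none higher, and no tuft gene was above 20 CPM. Of 12 goblet genes above 20 CPM, 1 was higher and 5 lower, which the rule in part fixed, since it left out barcodes rich in goblet transcripts. Mitosis genes had no member of 12 that was higher or lower in all 4 libraries (median ratio 1.14). Their summed level was 836, 691, 3119 and 1417 CPM in members against 1009, 877, 1773 and 1572 CPM in the others. Members were thus above the others only in Setdb1-KO nTnG replicate 1.

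**Figure D3:**
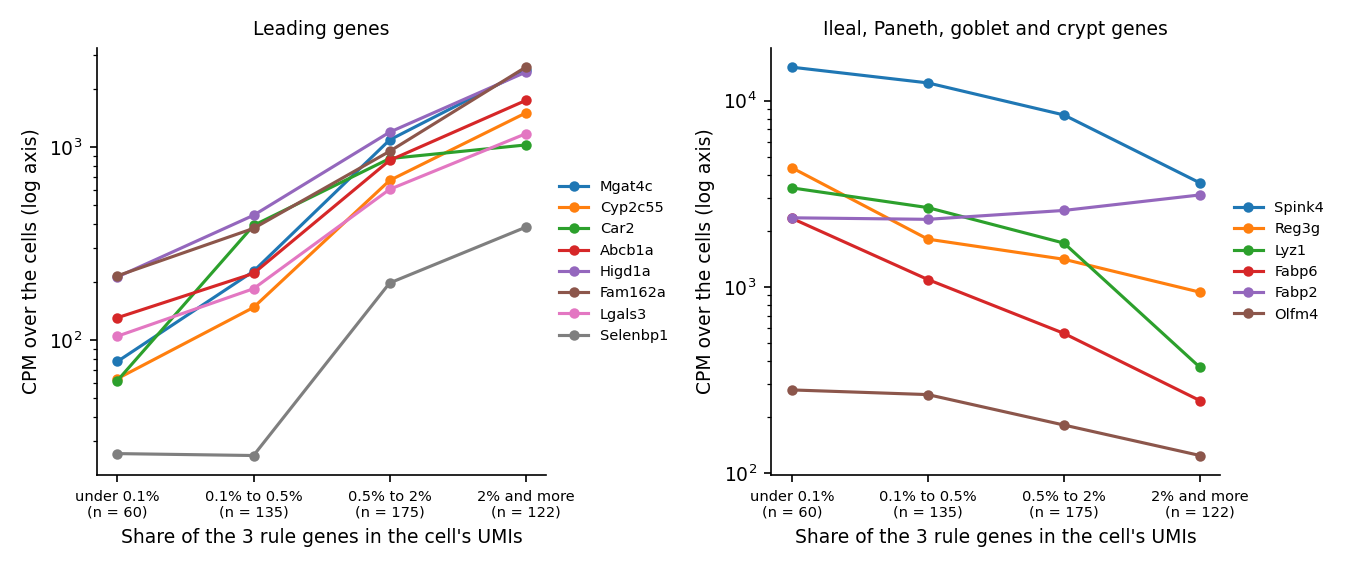
Pooled plain CPM over the members of 4 bins of the 3-gene share (under 0.1%, 0.1 to 0.5%, 0.5 to 2% and 2% or more), for leading genes (left) and for ileal, Paneth, goblet and crypt genes (right), 1 line per gene. The bins hold 60, 135, 175 and 122 cells.

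The members were then ordered by their share of the 3 genes. From under 0.1% to 2% and more, Car2 went from 61.7 over 392 and 871 to 1024 CPM, and Mgat4c from 77.5 over 227 and 1087 to 2494. Cyp2c55 went from 63.1 over 148 and 671 to 1500 CPM. The summed colon and caecum list went from 568 over 810 and 2034 to 3442 CPM. Within libraries, Car2 in Setdb1-KO nTnG replicate 2 was at 237, 805, 1952 and 1191 CPM. The list was at 1300, 971 and 3574 CPM in the upper 3 bins of Setdb1-KO nTnG replicate 1. For both, the other libraries rose at each step. Pooled Defa UMIs went the other way, from 34.9% over 25.5% and 14.3% to 5.75%, and pooled Lyz1, the Paneth lysozyme, went from 3400 to 369 CPM. Within libraries the Defa share went from 46.2% over 37.0% and 9.74% to 7.28% in WT nTnG replicate 1 and from 33.4% over 31.3% and 33.0% to 10.8% in WT nTnG replicate 2. In Setdb1-KO nTnG it was 1.57%, 1.83% and 0.865% in the upper 3 bins of replicate 1, of 10, 22 and 5 cells. In replicate 2 it was 17.4% in the lowest bin and 1.49%, 1.37% and 1.25% above it, in 6, 32, 18 and 23 cells. That 17.4% came mostly from 1 cell with 13663 UMIs and 62.1% Defa, and the rest of the bin was at 0.467% to 1.01%. Lyz1 in WT nTnG replicate 2 was at 2347, 1968, 4111 and 477 CPM. Pooled Fabp6 went from 2334 to 245 CPM, but the lowest bin was mostly WT nTnG replicate 2 (3148 to 726 CPM from the lowest to the highest bin), while WT nTnG replicate 1 went from 265 over 916 and 326 to 202 and Setdb1-KO nTnG replicate 2 from 119 over 319 and 17.6 to 76.0. Pooled Fabp2 was at 2349, 2305, 2573 and 3116 CPM, while WT nTnG replicate 1 went from 961 over 2055 and 2743 to 3094 and Setdb1-KO nTnG replicate 2 from 1603 over 1635 and 3112 to 2560. The median depth was 11930, 2696, 1377 and 1705.5 UMIs. The rule in part fixes this order, since a low share with at least 4 UMIs of the 3 genes needs a deep barcode. In the lowest bin Car2 was at 125, 25.9 and 237 CPM and Mgat4c at 153, 59.7 and 39.6 CPM in WT nTnG replicates 1 and 2 and Setdb1-KO nTnG replicate 2, with 41 of the 60 cells from WT nTnG replicate 2. These are pooled sums of cells from unequal libraries, and the bins are part of the same rule.

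The first comparison between genotypes was how many kept barcodes were Car1-positive. They made up 3.12% (95% Wilson interval 2.75 to 3.54) and 3.76% (3.19 to 4.42) of kept barcodes in WT nTnG replicates 1 and 2, and 0.778% (0.565 to 1.07) and 0.773% (0.621 to 0.962) in Setdb1-KO nTnG replicates 1 and 2. The mean was 3.44% ± 0.451 (SD, n = 2) in WT nTnG and 0.775% ± 0.00344 (n = 2) in Setdb1-KO nTnG, a ratio of 0.225, and the groups did not overlap. With 2 libraries a group the exact two-sided permutation test cannot go below its observed p of 0.33. The intervals cover counting error only. Since the rule counts UMIs, it is sensitive to depth. After each barcode was thinned to 1000 UMIs, the shares were 2.61%, 1.88%, 0.908% and 0.572%, 2.25% ± 0.517 against 0.740% ± 0.238, a ratio of 0.329 (2233, 1572, 2446 and 2350 shallower kept barcodes were left out). Members with the 3 genes at 0.5% or more made up 2.31%, 1.46%, 0.567% and 0.401% of kept barcodes. Free Car1 RNA differed in the same direction, at 442 and 516 CPM in near-empty barcodes of WT nTnG and 332 and 277 CPM in those of Setdb1-KO nTnG, and its part in the share was not tested. Fewer cells of this kind and less of these transcripts per cell cannot be told apart by a rule on transcripts, and the shares are of sorted cells, not of the tissue.

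**Figure D4:**
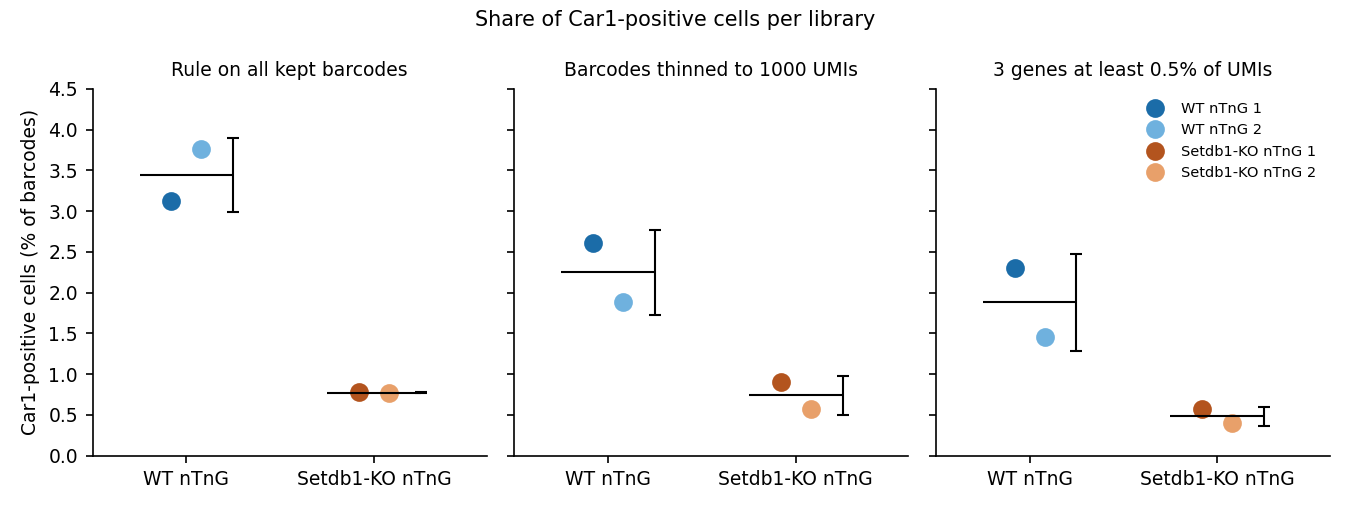
Share of kept barcodes that were Car1-positive (percent) in the 4 libraries under the rule, after thinning to 1000 UMIs and with the 3 genes at 0.5% or more of UMIs. Points are libraries, lines group means and bars SDs of 2 libraries, and both Setdb1-KO nTnG libraries lie below both WT nTnG libraries in each panel.

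The next comparison was of gene expression between genotypes within the members. UMIs were summed over the members of each library, and libraries were the replicates. The median member held 1699, 3591, 1383 and 3318 UMIs, and the median mitochondrial share of members was 2.33%, 3.33%, 1.92% and 1.68%. That share was higher in both WT nTnG libraries, and its part in the differences was not tested. With edgeR's quasi-likelihood test, 109 of 3493 genes tested passed an adjusted p of 0.05 (3.12%), 5 higher (0.143%) and 104 lower (2.98%) in Setdb1-KO nTnG. The same test on the other kept barcodes called 1036 of 12142 (8.53%), and 94 of the 109 genes were among those. The groups did not overlap for 1216 of the 3493 genes (34.8%). The split between higher and lower depended on scaling: on plain library totals, without the TMM factors that correct for composition, the median log2 difference of all genes moved from −0.05 to 0.64 and the calls were 34 higher and 55 lower. Without Setdb1-KO nTnG replicate 2, which held 305587 of that group's 365857 UMIs, 34 genes were called. Values below are TMM-scaled CPM, and differences are log2(Setdb1-KO/WT) ± SE.

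Small intestine and ileum enterocyte genes fell, with 20 of 23 tested lower and none higher (median log2 difference −3.30, or −3.06 with genes at 0 UMIs set at their bound, against −0.05 over all genes). Apoa1, a lipoprotein component that enterocytes secrete, was at 628 and 1010 CPM in WT nTnG and 12.7 and 17.6 in Setdb1-KO nTnG (−5.61 ± 0.67, edgeR adjusted p = 3.23e-13). Fabp6 was at 535 and 3934 against 0 and 150 CPM (−4.54 ± 0.60, adjusted p = 3.35e-11). Rbp2, a retinol carrier, was at 1078 and 1850 against 50.9 and 150 CPM (−3.69 ± 0.56, adjusted p = 1.04e-08). The WT nTnG libraries were above both Setdb1-KO nTnG libraries for each. Reg3g, an antibacterial lectin, fell less, from 1728 and 6514 to 178 and 799 CPM (−3.01 ± 0.58, adjusted p = 1.82e-05). Apoa4, Cyp3a11 and Apoc3 had 0 UMIs in the Setdb1-KO members, and against the 8.2 CPM that 3 UMIs over those pooled members would give they were at least 24.2-, 20.7- and 15.9-fold lower. Fabp2, at 2595 and 4573 against 1069 and 1924 CPM, did not pass (−1.25 ± 0.55, adjusted p = 0.38). The list was also lower in the other kept barcodes (median −2.71) and in near-empty barcodes (−0.97), and the part of free RNA in the members' difference was not tested. With the 3 genes at 0.5% or more of UMIs the count was 8 of 15, without Setdb1-KO nTnG replicate 2 it was 10 of 26, with DESeq2 9 of 26 and on plain library totals 12 of 23.

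Paneth genes fell as well, with 10 of 11 on the list and 17 of 17 tested Defa genes lower. Lyz1 was at 4307 and 3719 against 76.3 and 317 CPM (−4.21 ± 0.61, edgeR adjusted p = 1.97e-09). Itln1, an intelectin of Paneth cells, was at 5238 and 6152 against 242 and 411 CPM (−4.08 ± 0.63, adjusted p = 1.53e-08), and Mmp7, the protease that activates defensins, was at 378 and 482 against 102 and 55.8 CPM (−2.60 ± 0.53, adjusted p = 8.36e-05). The medians were −3.997 for the list and −3.91 for Defa genes in members, −2.64 and −2.41 in the other kept barcodes, and −0.88 and −1.41 in near-empty barcodes. Defa genes are near-identical copies whose reads can be split between them, so single Defa values are uncertain. In members with under 10% Defa UMIs (129, 21, 37 and 78 cells), 8 of 10 Paneth genes, 7 of 12 Defa genes and 14 of 17 small-intestinal genes were lower. The Defa share chose these cells and removed 108 and 118 WT nTnG members against 0 and 1 of Setdb1-KO nTnG, so these counts are a description only. The share of all genes called in that setting is not given here. Without Setdb1-KO nTnG replicate 2, 7 of 11 Paneth and 10 of 17 Defa genes were called, and with the 3 genes at 0.5% or more 9 of 10 and 8 of 12. Of the 109 genes, 22 were on the Paneth list or were Defa genes, and 29 lay below the near-empty level in the members of both WT nTnG libraries.

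Other lists had few genes called. MHC class II genes, which present peptides to T cells, had 3 of 4 lower, among them Cd74, the invariant chain, at 320 and 977 against 229 and 185 CPM (−1.67 ± 0.50, edgeR adjusted p = 0.0267). Conjugation genes had 2 of 14 lower, Gsta1 and Aldh1a1. Krt20 on the pan-epithelial list (1 of 10), Ccl6 on the goblet list (1 of 11), Chga on the enteroendocrine list (1 of 3) and Maf among transcription factors (1 of 12) were the single genes called on their lists, each lower. No MHC class II gene was called without WT nTnG replicate 2 or without either Setdb1-KO nTnG library. DESeq2 called none of the MHC class II, pan-epithelial, enteroendocrine and transcription factor genes, and on plain library totals none of the MHC class II, pan-epithelial, goblet and enteroendocrine genes was called. Ccl6 kept its call in 2 of 16 alternatives. The lists of tuft cell, T cell and mesenchymal genes had no gene tested.

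The 5 genes that rose were Gm42031, Foxd2os, Gsdme, Pibf1 and 4732465J04Rik. Gsdme encodes a pore-forming gasdermin, and it was at 67.6 and 38.9 against 331 and 144 CPM (2.04 ± 0.50, edgeR adjusted p = 0.00241). Pibf1, a centrosomal protein gene, was at 130 and 81.6 against 229 and 449 CPM (1.74 ± 0.47, adjusted p = 0.00751). Gm42031 was at 5.5 and 1.9 against 38.2 and 67.6 CPM on 3, 1, 3 and 23 UMIs (3.87 ± 0.78, adjusted p = 5.68e-05), and Foxd2os at 12.8 and 3.7 against 63.6 and 64.6 CPM on 7, 2, 5 and 22 UMIs. The call on 4732465J04Rik rests on 4, 1, 6 and 8 UMIs. Gm42031 was also higher in the other kept barcodes (2.35, edgeR adjusted p = 2.31e-05) and stood at 1.2 and 0.95 against 16.6 and 18.5 CPM in near-empty barcodes. In the other kept barcodes Foxd2os passed as well (0.89, adjusted p = 0.0447), and Gsdme (0.38), Pibf1 (0.78) and 4732465J04Rik (−1.02) did not. In near-empty barcodes the log2 differences of these 4 were −0.40, 0.87, 0.33 and 0.56, and the part of free RNA was not tested. With DESeq2 none of the 5 passed, and without WT nTnG replicate 2 Gsdme, Pibf1 and 4732465J04Rik did not.

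The genes that mark these cells were mostly not called. None of the 10 colon and caecum genes tested passed edgeR's adjusted p (median −0.53 in members, −0.62 in the other kept barcodes), with 5 at an unadjusted p under 0.05, 1 of them higher. None of 6 posterior identity genes (median 0.76, 2 at an unadjusted p under 0.05) or 4 carbonic anhydrase genes (0.77, 3 at an unadjusted p under 0.05) was called either, and DESeq2 called none in the 3 lists. Without WT nTnG replicate 1, 2 of 4 carbonic anhydrase genes and 1 of 10 colon and caecum genes were called higher, and without WT nTnG replicate 2, 1 of 10 colon and caecum genes was called lower. On plain library totals 1 of 4 carbonic anhydrase genes was called higher. With the replicate number as a block, 2 of 6 posterior identity, 2 of 4 carbonic anhydrase and 1 of 10 colon and caecum genes were called higher. Car2 was at 692 and 167 against 827 and 919 CPM (1.03 ± 0.48, edgeR adjusted p = 0.48), with both Setdb1-KO nTnG libraries above both of WT nTnG. Mgat4c was at 1384 and 410 against 598 and 672 CPM (−0.49 ± 0.49, adjusted p = 0.996), and Fam162a at 1209 and 654 against 840 and 949 CPM (−0.06 ± 0.49, adjusted p = 0.996). Cyp2c55 was at 1028 and 211 against 382 and 209 CPM (−1.13 ± 0.49, adjusted p = 0.36). For the last 3 genes the groups overlapped, and WT nTnG replicate 2 was below replicate 1. An adjusted p above the threshold does not show equal levels.

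The colon and caecum genes stood at other levels where members with at least 10% Defa UMIs were left out. Since that limit removed WT nTnG members almost alone, the values and counts are a description only. In that setting 4 of 7 colon and caecum genes tested (median −1.36) were past the threshold and lower, where the share over all genes is not given. The 1 of 2 carbonic anhydrase genes past it and lower was Car4, which is also 1 of these 4. The summed plain CPM of the list was 3597 and 3301 in WT nTnG and 1809 and 1247 in Setdb1-KO nTnG. Cyp2c55 was at 1524 and 865 against 498 and 243 CPM, and Muc3, a membrane mucin, at 266 and 194 against 33.2 and 65.1 CPM. Car4 was at 129 and 265 against 33.2 and 27.4 CPM, and Lypd8, which keeps bacteria from the colon surface, at 819 and 971 against 431 and 325 CPM. Car2 was at 1035 and 565 against 1078 and 1072 CPM there. The groups did not overlap for Cyp2c55, Muc3, Car4 and Lypd8, which were picked after their values were seen, while for Car2 both Setdb1-KO nTnG libraries lay above both of WT nTnG. WT nTnG replicate 2 had 21 such cells, and the setting was chosen after seeing the data. With the 3 genes at 0.5% or more of UMIs, no gene of the list was called.

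Other programmes held few calls. Of 12 mitosis genes none was called (median 0.63), with 4 at an unadjusted p under 0.05, all higher, and on plain library totals 4 were called higher. In the members with under 10% Defa UMIs, 2 of 10 mitosis genes and the 1 interferon gene tested were past the threshold and higher. The mitosis genes were Ube2c and Cenpf (log2 differences 2.28 and 3.00). These counts are again a description only, since the Defa share chose those cells, and the share over all genes is not given. Of 6 crypt stem genes 1, and of 6 DNA replication genes none, had an unadjusted p under 0.05 in edgeR, and none was called. Among 6 genes of Setdb1 and H3K9 methylation, 2 interferon and 3 cell death genes none reached an unadjusted p under 0.05 in edgeR. DESeq2 called none in these lists. Among the rule genes, given as values only, Car1 was at 16683 and 6345 against 17925 and 18975 CPM and Sult1a1 at 96.8 and 53.8 against 318 and 402 CPM. Most of the Car1 UMIs of Setdb1-KO nTnG replicate 1 came from 1 cell.

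**Figure D5:**
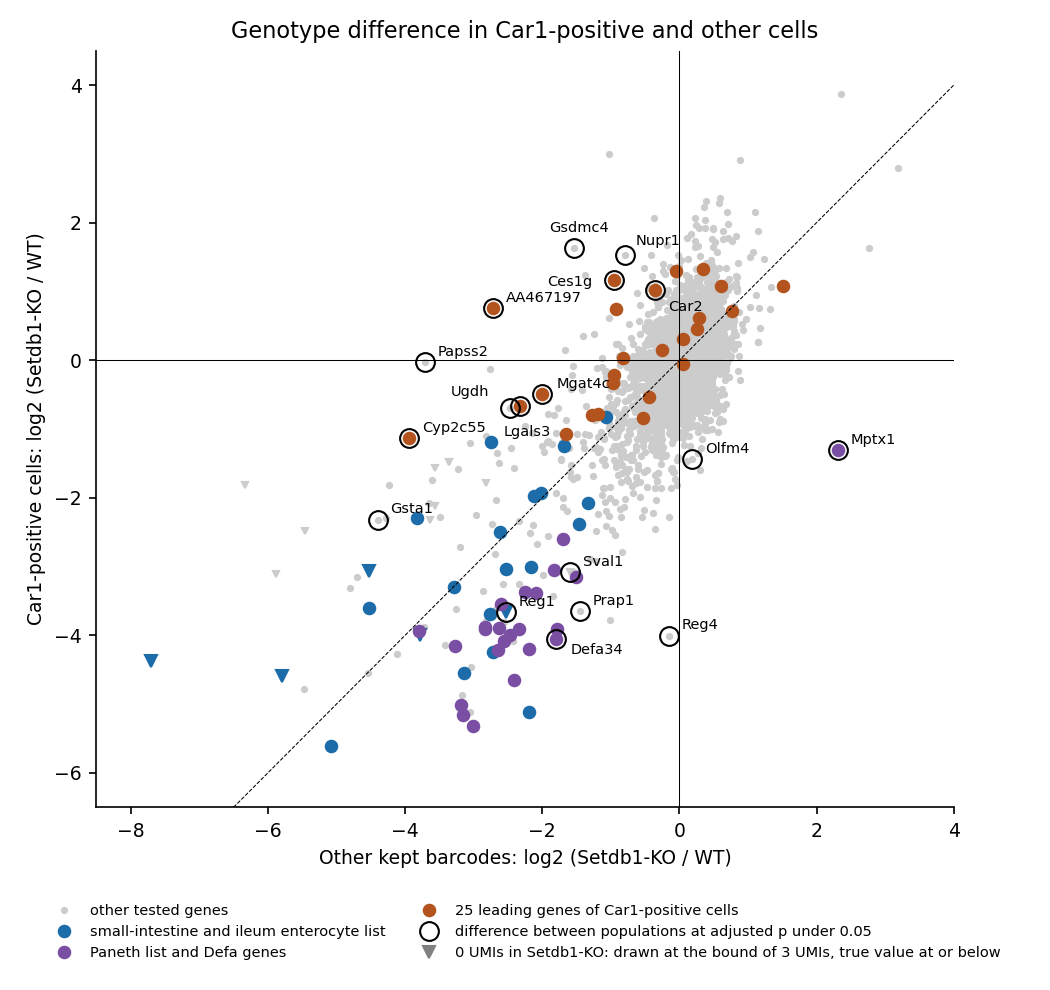
Log2 difference between Setdb1-KO nTnG and WT nTnG in members (vertical) and in other kept barcodes (horizontal), 1 point per gene, with triangles for genes at 0 UMIs in the Setdb1-KO members drawn at their bound and circles around genes whose difference differed between the populations. Of the 109 genes called in members, 108 had the same sign in both. Both populations come from the same 4 libraries, and the share of all tested genes with the same sign is not given.

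The last comparison asked for which genes the genotype difference itself differed between members and other kept barcodes. The edgeR interaction test, with library as a block, called 19 of 10620 genes (0.179%), 12 higher and 7 lower in members. Of these 6 were among the 25 leading genes. Cyp2c55 fell in the other kept barcodes from 39.7 and 43.9 to 6.7 and 2.1 plain CPM, and in members it was at 878 and 134 against 498 and 232 CPM (difference of log2 differences 3.11 ± 0.42, adjusted p = 3.5e-10). The make-up of the other kept barcodes differed as well. Enterocyte-marker cells were 10.6% and 5.57% of kept barcodes in WT nTnG and 0.588% and 1.31% in Setdb1-KO nTnG, and their part was not tested. Papss2, which makes the sulfate donor of sulfotransferases, was at 134 and 47.2 against 249 and 78.5 plain CPM in members and at 89.5 and 63.1 against 11.6 and 5.9 in the others (3.64 ± 0.45, adjusted p = 1.3e-11). The log2 difference of Papss2 was −3.71 in the others, which passed, and −0.02 in members, which did not, and that of Cyp2c55 was −3.94, which passed, and −1.13. For Car2 it was 1.03 in members and −0.35 in the others, neither of which passed, and the interaction did (1.54 ± 0.39, adjusted p = 0.0366). Lgals3 and Mgat4c each differed by 1.63 and Ces1g by 2.12. The interaction was −1.81 for Olfm4 and −3.86 for Reg4, a secretory-cell lectin. Near-empty barcodes of the WT nTnG libraries held 54.2 and 43.4 CPM of Cyp2c55 and those of Setdb1-KO nTnG 28.4 and 7.4, and the part of free RNA was not tested. Without Setdb1-KO nTnG replicate 2 the test called 3 genes, and without WT nTnG replicate 1 it called 69. With the 3 genes at 0.5% or more 10 of the 19 genes did not pass, among them Car2 (1.03) and Mgat4c (1.14), and with under 10% Defa UMIs 11 did not, among them Car2 (0.92) and Mgat4c (0.75).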

How the data were processed

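Ileal crypt cells sorted for GFP were profiled by 10x 3′ single-cell RNA-seq. The authors deposited unfiltered UMI count matrices per library with all barcodes. The submitters' processing notes name Cell Ranger 6.1.1 and Seurat 5.0.3, while the file header names Cell Ranger 4, on mm10. Gene coordinates are from GENCODE on GRCm38. The members and gene lists were chosen with earlier results of these data known. Counts of members were summed per library and tested with edgeR 4.0.16 (quasi-likelihood, filterByExpr, TMM, Benjamini-Hochberg over all genes tested), with Setdb1-KO against WT and, for the interaction, population by genotype with library as a block. The 3 marker and 4 goblet genes were left out of the counts of calls. Shares were compared by an exact two-sided permutation test. Simulated doublets (Scrublet) were kept, with a fit without them as an alternative. DESeq2 1.42.0 was another alternative. Genes were named by rule: the 12 higher and 12 lower with the smallest p among called genes with a log2 difference of at least 1 and no overlap, the members of lists that passed or had the highest CPM, and the 25 leading genes. All 19 interaction genes were named, and Slc26a3, Hoxb13, Aqp8, Scnn1g, Car13, Car3, Lgr5, Ptprc, Muc3, Ube2c and Cenpf after their values were seen. The tests across genes were tried on simulated counts with a lower spread between libraries than the data, whose common coefficient of variation was 0.305. There the genotype test in members called 24.5% of log2 changes of 1 and 88.9% of those of 2. The interaction test called 4.85% and 45.4%. A gene that was not called may therefore still differ. Bulk RNA, ChIP and scATAC samples were not used here. Some named genes are not reported here.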

Additional observations from a re-analysis of the deposited data

Results flagged for a closer look

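The 19 genes whose genotype difference differed between Car1-positive and other kept barcodes are given as the difference of log2 differences, positive where Setdb1-KO against WT was higher in members. Papss2 differed by 3.64, AA467197 by 3.49, Cyp2c55 by 3.11, Gsdmc4 by 3.10, Ces1g by 2.12, Gsta1 by 2.00, Nupr1 by 1.91, Ugdh by 1.78, Lgals3 by 1.63, Mgat4c by 1.63 and Car2 by 1.54. Slc37a2 differed by 6.69, on 3, 5, 4 and 4 UMIs in members. In the other direction Prap1 differed by −2.06, Defa34 by −2.07, Olfm4 by −1.81, Mptx1 by −3.54 and Reg4 by −3.86. Sval1 (−10.85) and Reg1 (−10.63) had 0 UMIs in the Setdb1-KO members, so their fitted values depend on the prior count and are no bound. In the Setdb1-KO members Defa34 was on 6 and 18 UMIs and Reg4 on 2 and 1.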

How the results depend on the processing

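The share of Car1-positive cells was lower in Setdb1-KO nTnG under all 7 other settings run for it (differences of −1.40 to −3.45 percentage points), and leaving out 1 library gave −2.35 to −2.99. Of genes called between genotypes in members, 109 in the report, thinning to 1000 UMIs gave 50, the members with the 3 genes at 0.5% or more 36 and DESeq2 58, none higher, and leaving out 1 library gave 34 to 121. The first 2 of these tested fewer genes (1056 and 1517). With the replicate number as a block, 174 genes were called (37 higher, 137 lower), and the interaction called 39. Among the 174 were 1 colon and caecum, 2 posterior identity, 2 carbonic anhydrase and 3 mitosis genes, all higher. The block also called 1 crypt stem and 2 goblet genes, all lower. The numbers were not taken as a pairing, because only 2 pairs share a number and nothing in the labels ties them (deviations of replicates 1 correlated at 0.25). A library left alone in its group was assumed to vary like the others. For the interaction, removing simulated doublets gave 30, plain library totals 32, and leaving out 1 library 3 to 69 (cause not tested). Over the alternatives the interaction was 0.53 to 2.77 for Car2 and 0.64 to 2.76 for Mgat4c. Of genes at least 2-fold higher in members in all 4 libraries, 12 in the report, the members at 0.5% or more gave 52 and those with under 10% Defa UMIs 43. The interaction of Gsta1 was −0.35 without Setdb1-KO nTnG replicate 2, the lowest of its values with 1 library left out, and 2.66 at the highest. The settings of 0.5%, 10% Defa UMIs, Defa genes left out and plain totals, and the members' contrast without doublets, were chosen after seeing the data. Of 50 named genes in the genotype test, 16 kept their call in each alternative that tested them, as did 2 of 19 in the interaction, Papss2 and Slc37a2. Members of Setdb1-KO nTnG replicate 1 held 60270 UMIs in 37 cells, which limits any value there.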
